A study of Apis mellifera with 2 samples.

Results

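miR-184 is 1 of 53 named honey bee miRNAs, and 1 of 692 entries, in a table of miRNA counts from queen and worker larvae of Apis mellifera ligustica. It was taken as the single entry with the name ame-miR-184. The larvae came from 3 colonies of 'Zhenongda No.1', a breed selected for high royal jelly yield. For the queen group, each colony had 150 young larvae (under 18 h old) placed in queen cups, where they were reared as queens. The worker group was larvae reared as workers in the same colonies. Larvae of both castes, 40 to 60 per colony, were frozen in liquid nitrogen on days 4, 5 and 6. Larvae of day 4 were 73 to 90 h old, those of day 5 were 97 to 114 h old, and those of day 6 were 121 to 138 h old. RNA of the 3 days was pooled into 1 queen library and 1 worker library of 18 to 30 nt RNA. Any effect of the move to queen cups and that of rearing as a queen cannot be told apart. There were no replicates, so no p-value was computed, and the spread of miR-184 between colonies, days or larvae was not measured.

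miRNAs are short RNAs that guide Argonaute proteins to messenger RNAs and lower their translation or stability. miR-184 is conserved from insects to vertebrates. In Drosophila the maternal supply and female germ line need it: it represses saxophone, a receptor for the growth signal Dpp, in the germline stem cell lineage, K10, a factor in the transport of the axis signal gurken, in the oocyte, and tramtrack69, a transcription factor, in the early embryo. It has been discussed in bee caste development, where queen larvae go on to form large ovaries while those of worker larvae lose most of their ovarioles by cell death. In the RefSeq annotation of assembly Amel_HAv3.1 the name matched 1 gene, Mir184, a miRNA gene of 92 bases on chromosome 13 that overlapped 0 other genes. It lay between LOC100576527, a protein-coding gene, and LOC100577428, a long non-coding RNA gene, and 0 other miRNA genes lay within 10 kb, so miR-184 had no clustered partner whose counts could be set beside its own.

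miR-184 was among the most counted miRNAs in both castes and made up a larger share of the queen library. It had 435758 counts of 2658259 in the queen library, a share of 16.4% (16.3 to 16.4). It had 333644 counts of 2318675 in the worker library, a share of 14.4% (14.3 to 14.4). The queen share was therefore larger by 2.003 percentage points, and the intervals of the shares did not overlap. These are exact Clopper-Pearson 95% intervals. They cover counting error only and take each read as a separate molecule, although PCR makes copies and no molecular identifiers were described. A share is of the listed miRNA counts, so it depends on every other miRNA of that library, and in whole larvae fewer cells of a type and less RNA per cell cannot be told apart.

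The rank of miR-184 differed between the castes by 1 place. In the queen library it was at rank 2 of the 53 named miRNAs, below miR-275 (39.0%) and above miR-1 (15.0%). In the worker library it was at rank 3, below miR-275 (33.8%) and miR-1 (18.0%) and above miR-305 (5.82%). Its ranks among all 692 entries were also 2 and 3. Thus the change in rank was an exchange of places with miR-1, the main miRNA of muscle in insects and vertebrates alike. Counts of miR-184 were 1.09 times those of miR-1 in the queen library (1.087 to 1.097) and 0.800 times those of miR-1 in the worker library (0.796 to 0.803). Neither interval reached 1, so the order of the pair in each library was outside counting error. The order is one of counts. Adapter ligation favours some sequences, so it need not be the order of molecules.

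**Figure D1:**
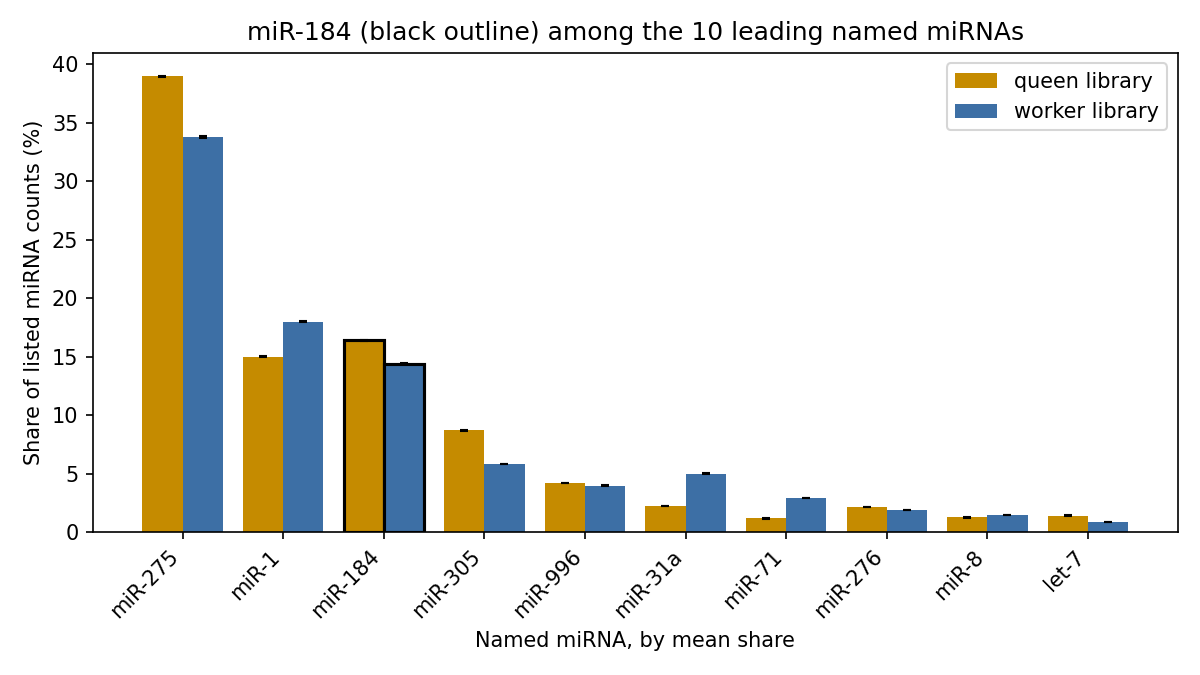
Share of listed miRNA counts, in percent, of the 10 named miRNAs with the largest mean share, in the queen and the worker library (bars; error bars are 95% counting intervals). miR-184, outlined, stood at 16.4% and 14.4%, above miR-1 in the queen library and below it in the worker library.

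The distance between miR-184 and the bulk of the table was large in both libraries and larger in the queen library. Its queen counts were 4.88 times the sum of the 639 predicted entries (89383 counts), and its worker counts were 3.03 times that sum (110273 counts). Against the sum of the 43 named miRNAs outside the 10 leading ones, it stood at 3.19 times in the queen library and 1.999 times in the worker library. Named miRNAs were assessed where both libraries together held at least 20 counts, which 49 did. Set beside the median of these 49, miR-184 had 202 times as many counts in the queen library and 116 times as many in the worker library. In the queen library 36 named miRNAs had under 1% of its counts, and in the worker library 30 did. The values it was set against were themselves lower in the queen library. The sum of the 43 was 136502 counts in queen and 166866 in worker, and the median was 2160 and 2883. The larger queen multiples therefore do not come from miR-184 alone. Other leading miRNAs were not set against these values here.

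With counts scaled to the library total, the caste ratio of miR-184 was small beside those of many named miRNAs. Counts were scaled to counts per 1000000 listed counts (CPM), which gave 163926 CPM in queen and 143894 CPM in worker. The ratio of queen over worker was 1.14 (1.13 to 1.14), a log2 ratio of 0.19 (0.18 to 0.19). The unscaled counts had a ratio of 1.31, while the library totals had a ratio of 1.15. A call of higher in queen or in worker was made where CPM differed at least 2-fold and the 95% interval excluded 1. miR-184 was not called, whereas 1 of the 49 named miRNAs was called higher in queen (2.04%) and 12 were called higher in worker (24.5%). Over all 136 entries with at least 20 counts, with a count of 0 set to 3 counts, the shares called were 11% and 28.7%. The interval lay wholly above 1, in the queen direction, for 22.4% of the 49 named miRNAs, miR-184 among them, and wholly below 1 for 65.3%. At a 1.1-fold limit, which miR-184 passed, 14.3% were called higher in queen.

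Within the named miRNAs miR-184 nevertheless stood towards the queen end. The median log2 ratio of the 49 was −0.36, with 12 above 0 and 37 below, so miR-184 lay 0.55 above the median. The ratio was higher than that of miR-184 in 6 named miRNAs and lower in 42. The 10 leading miRNAs, miR-184 among them, had a median log2 ratio of 0.13, with 6 above 0 and 4 below. At 0.19, miR-184 was therefore close to the median of the most counted miRNAs. Of the 72 predicted entries with at least 20 counts and reads in both libraries, 8 had a higher ratio than miR-184 and 64 a lower one. Their median log2 ratio was −0.46. Predicted entries with 0 reads in 1 library were left out of the 72. Over all 136 entries, with a 0 set to 3 counts, 15 were called at least 2-fold higher in queen. Only 1 of these was a named miRNA, so the 72 lack some entries further to the queen side than miR-184. The distance of 0.55 from the median of the 49 is the same whatever the library scaling. The ratio itself is not.

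**Figure D2:**
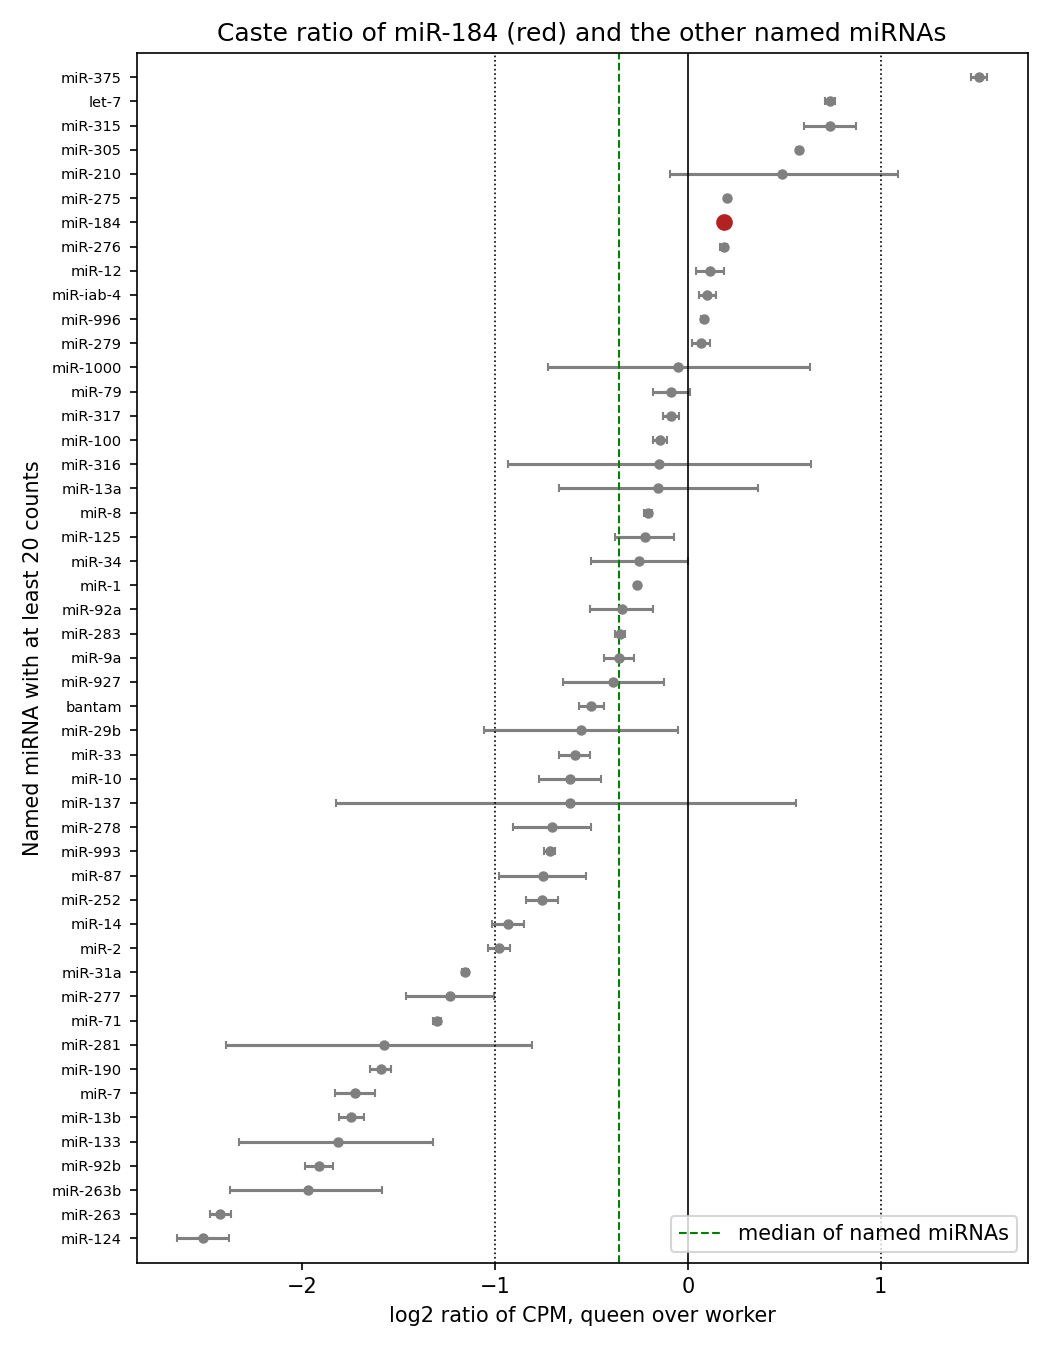
log2 ratio of CPM, queen over worker, of the 49 assessed named miRNAs (points; bars are 95% counting intervals), with the median dashed and 2-fold limits dotted. miR-184, in red, lies at 0.19, to the queen side of the median of −0.36 and inside the 2-fold limits.

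All 6 other scalings kept miR-184 on the queen side. Each moved its ratio further from 1, except totals of named miRNAs, which moved it nearer. For totals without miR-184, without miR-275 or without the 5 most abundant miRNAs, this followed from the shares. The part left out was larger in queen, so these are not separate checks of the direction. With edgeR TMM factors, which set the typical entry near a ratio of 1, its log2 ratio was 0.61. DESeq2 median-of-ratios factors gave 0.65, and totals without the 5 most abundant miRNAs gave 0.71. These scalings raised every log2 ratio by 0.43, 0.46 and 0.52, and took the median of the named miRNAs to 0.07, 0.10 and 0.16. Leaving miR-184 itself out of the totals gave 0.22, leaving out miR-275 gave 0.31, and totals of named miRNAs gave 0.17. Over the 7 scalings the ratio of queen over worker thus ran from 1.12 to 1.63, always under 2. The range between scalings was far wider than the counting interval of any of them. The counting error of miR-184 itself was thus not what limited its caste ratio between these libraries. The intervals take each scaling as fixed. TMM and median-of-ratios factors came from all 692 entries with no minimum count, and counting error in these factors was not measured.

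**Figure D3:**
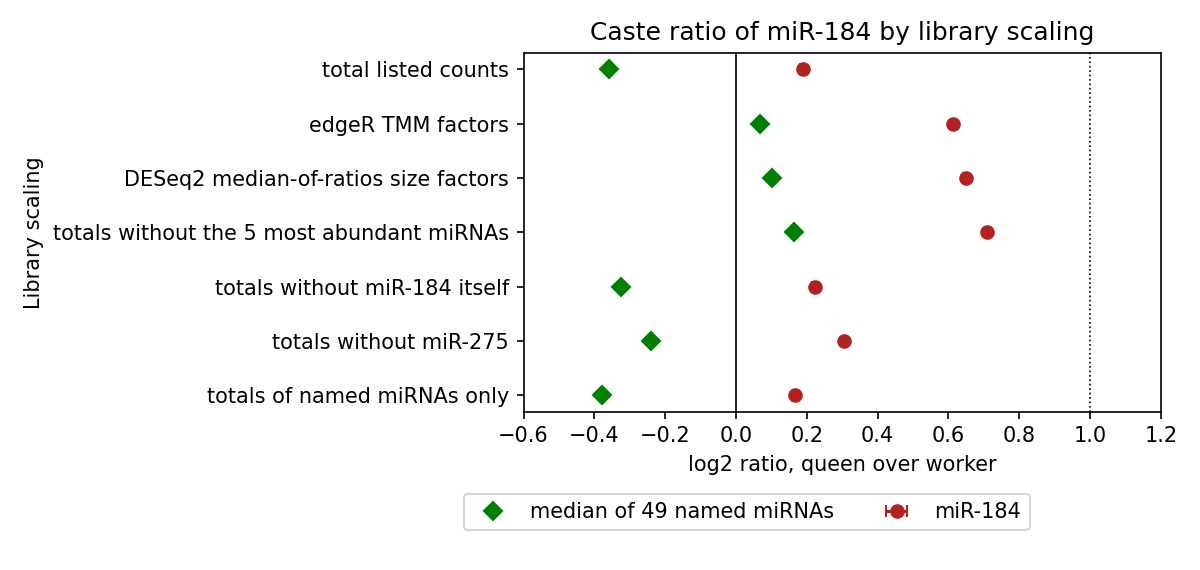
log2 ratio of miR-184, queen over worker, under 7 library scalings (red points, with 95% counting intervals narrower than the symbols) and the median of the 49 named miRNAs (green diamonds). Both shift together, from 0.17 to 0.71 for miR-184, and stay 0.55 apart.

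A comparison within libraries needs no scaling, and it set miR-184 against each of the 9 other leading miRNAs. Counts of miR-184 over those of the other miRNA were taken in each library, and the queen ratio was divided by the worker ratio, with a Wald 95% interval for counting error. The result was above 1 for 5 miRNAs, below 1 for 3 and not distinguishable from 1 at this depth for 1. miR-276, conserved among insects, was the one that was not distinguishable. miR-184 had 7.58 times the counts of miR-276 in the queen library and 7.57 times in the worker library, a quotient of 1.001 (0.988 to 1.01). miR-276 itself had 57489 queen and 44073 worker counts.

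miR-275, needed for blood digestion and egg development in mosquitoes, was nearly as close. It had 2.38 times the counts of miR-184 in the queen library and 2.35 times in the worker library, and the quotient for miR-184 was 0.988 (0.983 to 0.993). Its neighbour in the genome, miR-305, moved away from miR-184. miR-184 had 1.89 times the counts of miR-305 in the queen library and 2.47 times in the worker library, a quotient of 0.764 (0.757 to 0.770). The same held for let-7, a regulator of developmental timing, over which miR-184 stood 11.6 times in queen and 17.0 times in worker, a quotient of 0.683 (0.671 to 0.695). For miR-275, miR-305 and let-7, then, miR-184 was the member of the pair with the relatively higher worker level.

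Against the other 5, miR-184 was relatively higher in the queen library. The widest gap was to miR-71, a miRNA of the miR-2 cluster, with 14.0 times its counts in queen and 4.97 times in worker, a quotient of 2.81 (2.77 to 2.85). For miR-31a the values were 7.32 and 2.89 times, a quotient of 2.54 (2.51 to 2.56). miR-71 and miR-31a were the 2 leading miRNAs called higher in worker with scaling to the total, a call that both lost under TMM, under median of ratios and when the 5 most abundant miRNAs were left out of the totals. For miR-1 the quotient was 1.37 (1.36 to 1.37), and for miR-8, a regulator of growth and insulin signalling in Drosophila, it was 1.32 (1.29 to 1.34). miR-996 was nearer to miR-184, with 3.91 times and 3.63 times and a quotient of 1.08 (1.07 to 1.09). The value for miR-996 is uncertain, because reads may also fit its close relative miR-279 and how the authors assigned them is not stated in what was used here.

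**Figure D4:**
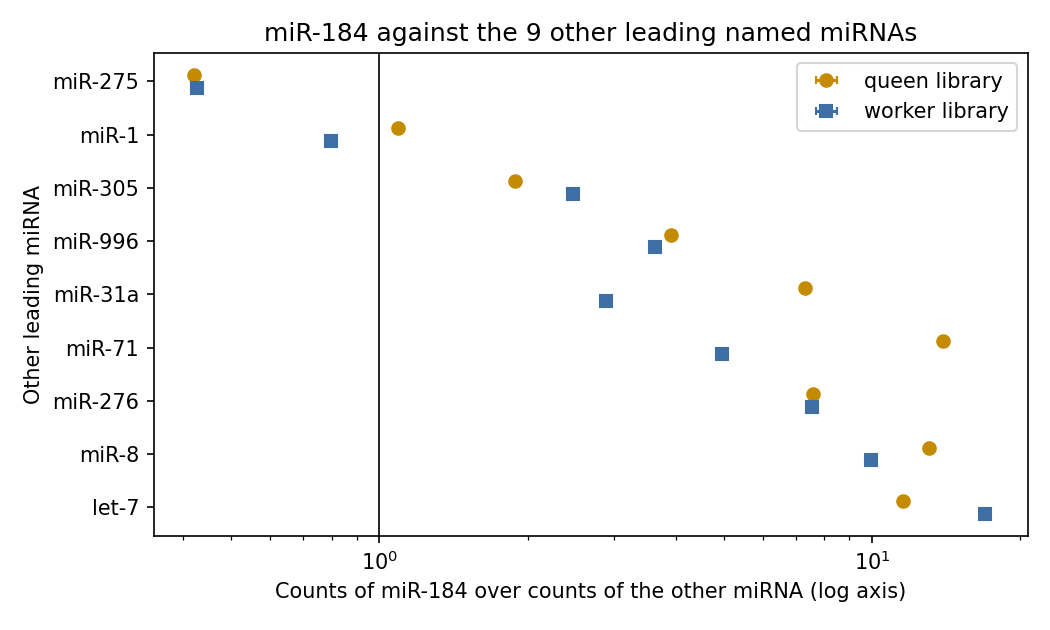
Counts of miR-184 over counts of each of the 9 other leading named miRNAs, on a log axis, in the queen (circles) and worker (squares) library; 95% counting intervals are narrower than the symbols. The points nearly coincide for miR-275 and miR-276, lie on either side of 1 for miR-1 (1.09 and 0.800), and are farthest apart for miR-71 (14.0 and 4.97).

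The 5 named miRNAs whose log2 caste ratio lay nearest to that of miR-184 were chosen by the size of the difference over the 2 libraries. They were miR-276 at 0.19, miR-275 at 0.21, miR-12 at 0.11, miR-iab-4 at 0.10 and miR-996 at 0.08, against 0.19 for miR-184. Likeness over 2 libraries is a single difference and says little. miR-12 had 3523 queen and 2840 worker counts. miR-iab-4, a Hox cluster miRNA that in Drosophila represses Ultrabithorax, had 9063 and 7368. Counting intervals overlapped that of miR-184 for 7 named miRNAs. miR-276 and miR-12 were well counted, and set directly against miR-12 the quotient for miR-184 was 1.05 (1.002 to 1.11), just outside 1. The other 5, miR-137, miR-316, miR-1000, miR-210 and miR-13a, which were named after their values were seen, had only 28 to 132 counts over both libraries. For these the depth could not show a difference from miR-184.

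miR-184 also took a large part of the difference in depth between the libraries. The queen library held 339584 more listed counts than the worker library. miR-184 had 102114 more, equal to 30.1% of that difference. A miRNA with the same share in both libraries would take that share of the difference, and miR-184 held 14.4% of worker counts. miR-275 had 252315 more (74.3%) and miR-305 had 95966 more (28.3%), while miR-31a had fewer in queen, at −56095, and miR-1 also, at −18283. The positive differences sum to more than the total and are offset by such negative ones. Scaling to all listed counts therefore carries the counts of miR-184 and miR-275 in its denominator.

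Other miRNAs with described roles in the Drosophila ovary or germ line had log2 caste ratios from −1.73 to 0.74, against 0.19 for miR-184. The list had 8 members including miR-184, of which 6 were counted here; miR-318 and miR-989, miRNAs of follicle cells, had no row and are not analysed here. Of the 5 other than miR-184, 0 were called higher in queen and 1 was called higher in worker, beside 2.04% and 24.5% of the 49 named miRNAs, so the count of calls does not set the list apart. The log2 ratio was above 0 for 1 and below 0 for 4, with a median of −0.50 beside −0.36 for the 49. The called member was miR-7, which in Drosophila acts in germline stem cell division as well as in neurons. It had 996 queen and 2873 worker counts, a log2 ratio of −1.73 (−1.83 to −1.62), a call kept under TMM, median of ratios and totals without the 5 most abundant miRNAs. let-7 stood at 0.74, not called with scaling to the total and past 2-fold in queen with these other 3.

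bantam, which promotes growth and maintains germline stem cells in Drosophila, had 3543 and 4375 counts and a log2 ratio of −0.50 (−0.57 to −0.44). With TMM it was −0.08 (−0.14 to −0.01), with median of ratios −0.04 (−0.11 to 0.02) and without the 5 most abundant miRNAs 0.02 (−0.04 to 0.08), so its direction was not distinguishable under the last 2. miR-278 had 346 and 492 counts, at −0.71 (−0.91 to −0.50). It stood at −0.28, −0.24 and −0.18 with these scalings, and the interval of the last (−0.39 to 0.02) covered 0. miR-125, of the let-7 complex, had 705 and 718 counts, at −0.22 (−0.38 to −0.07), and turned positive with each of the 3 other scalings. miR-184 had 10.1 times the summed counts of the other 5 members in the queen library (43248 counts) and 11.9 times in the worker library (28142 counts). let-7 alone gave 37658 and 19684 of these summed counts. As miR-184 was at rank 2 and rank 3 of all 692 entries, its distance from the list is not particular to these members.

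Since whole larvae were used, marker miRNAs of 3 tissues were set beside miR-184. All 5 had counts above 0 in both libraries. The muscle markers miR-1 and miR-133 summed to 150113 CPM in queen and 180024 CPM in worker, nearly all of it miR-1. miR-133 by itself had 46 and 141 counts and a log2 ratio of −1.81 (−2.33 to −1.32), a call in worker that held at −1.39, −1.35 and −1.29 with TMM, median of ratios and totals without the 5 most abundant miRNAs. The nervous system markers miR-124 and miR-7 summed to 582 and 2422 CPM. The midgut marker miR-281 stood at 7.52 and 22.4 CPM from 20 queen and 52 worker counts. Under scaling to the total, all 3 sums were higher in worker, while miR-184 was higher in queen. With this scaling 37 of the 49 named miRNAs were higher in worker and 24.5% were called so. The direction alone therefore does not set the markers apart. By call, however, miR-133, miR-124, miR-7 and miR-281 were each higher in worker, and miR-1 was not called. miR-124 had 550 queen and 2743 worker counts and a log2 ratio of −2.52 (−2.65 to −2.38), the lowest of the 49. With TMM, median of ratios and totals without the 5 most abundant miRNAs it stood at −2.09, −2.06 and −1.99. The calls of miR-7 and miR-281 also held with these scalings. miR-1, and with it the muscle sum but not miR-133, turned to the queen direction with the same 3 scalings. The part of tissue make-up in the caste ratio of miR-184 was not tested.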

How the data were processed

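The authors deposited whole-number counts for each miRNA entry, in 1 column per caste beside 242 further columns with 0 filled cells. Per the labels' protocols, Trizol RNA was size-selected on a gel (18 to 30 nt), ligated to a 5' and then a 3' adapter, amplified by RT-PCR and sequenced on the Solexa platform. Ligation and PCR favour some sequences. Not given in the sources used here were the aligner, the miRNA annotation, the genome build and how multiply matching reads were treated. Mature sequences were not used here, so seeds were not compared. RefSeq served for names and neighbours only.

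Counts were scaled to 2658259 (queen) and 2318675 (worker) listed counts, so that 1 count was 0.376 and 0.431 CPM. The ratio of CPM carries an exact conditional (Clopper-Pearson) 95% interval for counting error. Calls needed at least 20 counts over both libraries, a ratio of at least 2 or at most 0.5 and an interval without 1; 4 named miRNAs fell below this. edgeR 4.0.16 and DESeq2 1.42.0 (R 4.3.3) supplied scaling factors only. Intervals were computed with scipy 1.17.1 under Python 3.11.15 (with pandas 2.3.3 and numpy 2.4.6) and drawn with matplotlib 3.10.9. The calling step was tested on simulated data with counting error only, and with changes placed only in entries of far smaller share than miR-184. Named were miR-184, the 10 leading miRNAs, the 5 nearest in caste ratio, and the ovary and tissue lists. miR-184 and the lists were chosen with earlier results of these data known. The alternatives were other scalings, minimum counts, fold thresholds and interval levels.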

Additional observations from a re-analysis of the deposited data

How the results depend on the processing

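miR-184 kept its queen direction and stayed under 2-fold with all 6 other scalings, at log2 ratios of 0.17 to 0.71. Where abundant miRNAs were left out of the totals, the direction followed from the shares and was not a separate check. At a 1.1-fold threshold its log2 ratio of 0.19 counted as a call in queen (14.3% of the 49 named miRNAs did). At 1.5-fold and with a 99% interval it stayed uncalled. The 1.5-fold threshold was applied with scaling to the total only. miR-184 was above 1.5 with TMM (1.53), median of ratios (1.57) and totals without the 5 most abundant miRNAs (1.63). Its distance of 0.55 from the median named miRNA was the same with a minimum of 100 and, where a 0 was set to 3 counts, with no minimum. With the 0 of miR-219 kept as 0, an alternative chosen after seeing the data, it was 0.57. Its share of 16.4% in queen and 14.4% in worker became 17.0% and 15.1% of named counts, 26.9% and 21.7% without miR-275, and 49.5% and 37.5% without the 4 other most abundant miRNAs, since those totals are smaller. Named miRNAs called higher in queen (1) became 4 with TMM, 4 with median of ratios, 5 without the 5 most abundant miRNAs and 3 at 1.5-fold, and those higher in worker (12) became 9 with each of these scalings and 20 at 1.5-fold. These follow from a constant added to every log2 ratio or from the threshold. In the same order of scalings, log2 ratios that changed sign were 0.16, 0.20 and 0.26 for miR-1, 0.22, 0.25 and 0.31 for miR-8, and 0.20, 0.24 and 0.30 for miR-125; bantam reached 0.020 with the last. No paired analysis was possible because there was 1 library per caste, so none could be omitted either. Counting error of the miRNA itself does not limit miR-184, but limits miR-281 at 72 counts.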
